A study of Homo sapiens with 8 samples.

Results

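The footprints of ribosomes on the mRNAs of central carbon metabolism were followed in HEK293T cells that lacked a single amino acid. The members were 41 named genes of glycolysis, the pentose phosphate pathway, pyruvate entry into mitochondria and the citric acid cycle. They were found by matching each transcript identifier to its gene symbol and keeping the highest transcript of each gene. Of the 41 genes, 37 were listed in at least 1 library, among 12235 genes listed in the whole series. HEK293T is a human embryonic kidney line immortalized with SV40 large T antigen. Ribosome profiling sequences the short mRNA pieces that a ribosome shields from RNase I. A footprint count, set against the total of its library, measures the share of ribosomes on an mRNA. All cells were wild type and received the same custom DMEM with dialyzed serum, to which sulfur amino acids, histidine, leucine and arginine had been added back (Suff) or from which arginine (Arg-), leucine (Leu-) or methionine (Met-) had been left out overnight. Each medium was profiled once after cycloheximide pretreatment, which freezes ribosomes in place, and once without the drug, giving 8 libraries with 1 library per condition. Comparisons within each of the 2 drug series are given without a test, and a fit over both series, with p-values, is given further on. Unless stated otherwise every interval is an exact 95% interval for the counting of reads alone.

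Glycolysis splits glucose into pyruvate in the cytosol, and its upper steps spend ATP while its lower steps return ATP and NADH. The pentose phosphate pathway draws on glucose 6-phosphate to make NADPH and ribose 5-phosphate, the sugar of nucleotides. Pyruvate is turned into lactate by lactate dehydrogenase, or it enters mitochondria, where pyruvate dehydrogenase makes the acetyl-CoA that the citric acid cycle oxidises and pyruvate carboxylase makes oxaloacetate. PCK2, the mitochondrial phosphoenolpyruvate (PEP) carboxykinase, turns oxaloacetate back into PEP and is a known target of ATF4, the transcription factor of the integrated stress response to amino acid shortage.

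The deposited unit was RPKM, which divides the reads of an mRNA by its coding length and by the depth of the library, so levels of different genes can be set side by side. All values are therefore relative to the library, and a higher value need not mean more ribosomes on that mRNA per cell. The paper reports less puromycin labelling of new proteins in each starvation, and the least in methionine deficiency. Reads on coding sequences ranged from 1302523 to 3139745 without cycloheximide and from 538222 to 6434043 with it, and the drug series listed no transcript under 64 reads. Vimentin (VIM) and NEFM, both known from this line, were listed in all 8 libraries, whereas PTPRC, CD3E, HBB and ALB, which mark blood and liver cells, were listed in none. KRT18, NEFL, INA, KRT8 and PAX2, further markers of this line, were listed in 6, 7, 6, 4 and 2 libraries. COL1A1, a fibroblast collagen, was listed in 5 libraries at 1.59 to 20.2 RPKM. The Suff library with cycloheximide stood apart from the rest: the members took 0.610% of its reads, against 0.950% to 1.94% in the other 7 libraries. All 3 comparisons with cycloheximide rest on it and cannot be made without it, and its part in their results was not tested. Each comparison within a series shares its Suff library with the other two.

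Without cycloheximide, 36 members were listed in all 4 libraries. With it, 26 were listed in Suff, 32 in Arg-, 32 in Leu- and 20 in Met-, and 19 in all 4. HK1, ALDOA, PDHA1 and SUCLA2 were matched in no library and were not analysed here, and LDHA was listed with cycloheximide only. Reads that fit more than 1 transcript are left out of these values, and GAPDH, TPI1, PGK1, PGAM1, ENO1 and both lactate dehydrogenases have near-identical copies in the genome, so their levels are uncertain.

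In Suff without cycloheximide the lower glycolytic enzymes carried the most footprints per coding length. GAPDH, which oxidises glyceraldehyde 3-phosphate, led all members at 5279 RPKM, followed by the triosephosphate isomerase TPI1 at 2788, LDHB at 2397 and the enolase ENO1 at 1769. At the other end stood pyruvate carboxylase (PC) at 3.33 RPKM, the neuronal enolase ENO2 at 8.05, PCK2 at 11.1, the oxoglutarate dehydrogenase OGDH at 12.1 and the hexokinase HK2 at 14.1. The highest members of the other groups were the glucose 6-phosphate isomerase GPI at 352 RPKM, transaldolase (TALDO1) at 440, the pyruvate dehydrogenase subunit PDHB at 274 and the mitochondrial malate dehydrogenase MDH2 at 917.

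**Figure D1:**
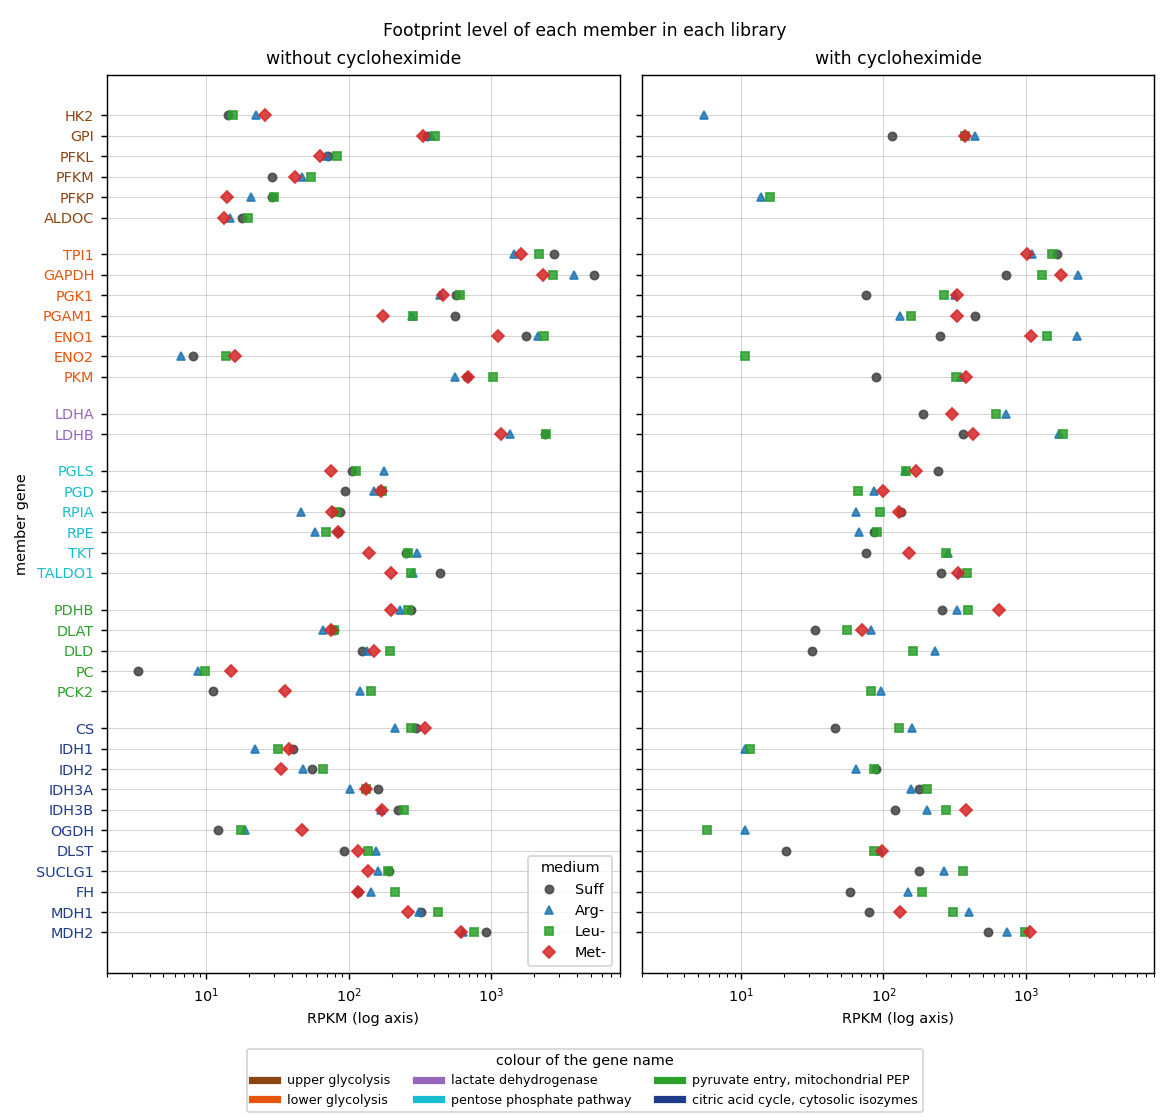
RPKM of each listed member on a log axis, without cycloheximide on the left and with it on the right; each symbol is 1 library, and a missing symbol means that the gene was not listed. On the left the Suff circles of PCK2 and PC lie left of all 3 starved libraries, and on the right the Suff circles lie left of the starved libraries for most of the longer mRNAs.

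The share of all footprints that fell on the members was largest in Suff without cycloheximide, at 1.94% of reads (interval 1.93% to 1.96%). It was 1.80% in Leu- (1.78% to 1.83%), 1.55% in Arg- (1.53% to 1.57%) and 1.24% in Met- (1.22% to 1.26%). These intervals do not overlap, but they cover the counting of reads alone and not the spread between cultures. Among the groups the share of lower glycolysis fell most, with 1.23% in Suff, 1.04% in Leu-, 0.954% in Arg- and 0.703% in Met-. Much of this lay in GAPDH, whose level is uncertain. It had 16707 of the group's 38466 reads in Suff and 4128 of 15502 in Leu-. Not all genes of the group shared the fall. In Leu- ENO1 was at 2370 RPKM against 1769 in Suff, and pyruvate kinase (PKM) at 1039 against 674. The citric acid cycle group varied less, at 0.245%, 0.247%, 0.200% and 0.218% in the same order. Members without a whole read count are left out of all these shares. They were GPI in every library, MDH1 without cycloheximide, and PFKP in Arg- and Leu- with it. In Suff the shares thus cover 34 of 36 listed members without the drug and 25 of 26 with it, and group shares are not alike between the series. With cycloheximide Suff was the lowest, with 0.610% in Suff, 1.44% in Arg-, 1.28% in Leu- and 0.950% in Met-. Taken over the reads of listed transcripts only, Met- was at 1.47%, above Leu- at 1.38%. Over the 16 members with a read count in all 8 libraries, the share was 1.75%, 1.34%, 1.54% and 1.01% in Suff, Arg-, Leu- and Met- without the drug and 0.509%, 1.16%, 1.02% and 0.893% with it.

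**Figure D2:**
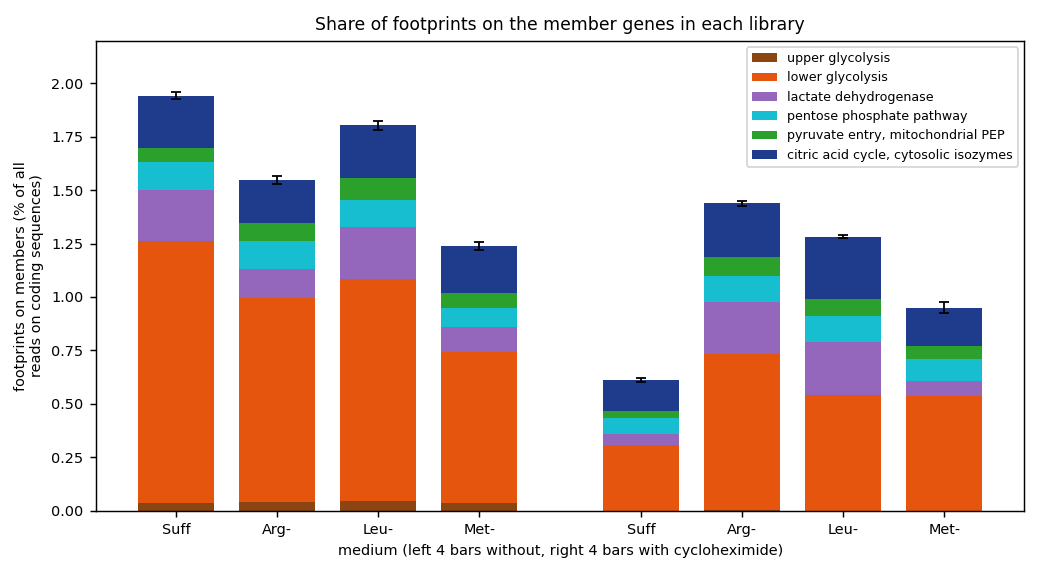
Percentage of all reads on coding sequences that fell on the members, stacked by pathway for each of the 8 libraries, with bars from 0 and the exact 95% binomial interval of the total as a black line. Without cycloheximide the Suff bar is the tallest at 1.94%, and with cycloheximide it is the shortest at 0.610%. GPI in every library, MDH1 without cycloheximide, and PFKP in Arg- and Leu- with it gave no whole read count and are not in the bars.

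Starved cells were compared with Suff through log2((RPKM + 1)/(RPKM in Suff + 1)), a scale that understates the change of low mRNAs, over mRNAs listed in both libraries with a mean of at least 10 RPKM. Most members stayed within 2-fold of Suff when cycloheximide was left out. In Arg-, 1 of 34 members compared (PCK2) was at least 2-fold higher, beside 8.23% of all mRNAs, and 1 (PGAM1) was at least 2-fold lower, beside 5.95%. In Leu-, 1 of 35 (PCK2) was higher, beside 6.85% of all mRNAs, and 0 were lower, beside 2.06%. In Met-, 2 of 35 (PCK2 and OGDH) were higher, beside 20.2%, and 4 (GAPDH, PGAM1, LDHB and TALDO1) were lower, beside 5.34%. The members' median log2 ratio was -0.25 in Arg-, 0.09 in Leu- and -0.27 in Met-, beside medians of -0.02, 0.14 and 0.32 over all mRNAs. Of the members, 12 of 34, 14 of 35 and 7 of 35 lay above the median of all mRNAs.

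Scaling mattered for these counts. When each ratio was taken relative to the median of all mRNAs, the split of higher against lower members was 1 and 0 in Arg-, beside 8.74% and 5.53% of all mRNAs. It was 1 and 2 in Leu-, beside 4.47% and 3.44%, and 2 and 8 in Met-, beside 10.7% each way. The members' median was then -0.046 in Leu-, on the other side of 0, and -0.58 in Met-. The 2 lower in Leu- were GAPDH and PGAM1. The 8 in Met- were PFKP, TPI1, GAPDH, PGAM1, LDHB, TKT, TALDO1 and IDH2.

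**Figure D3:**
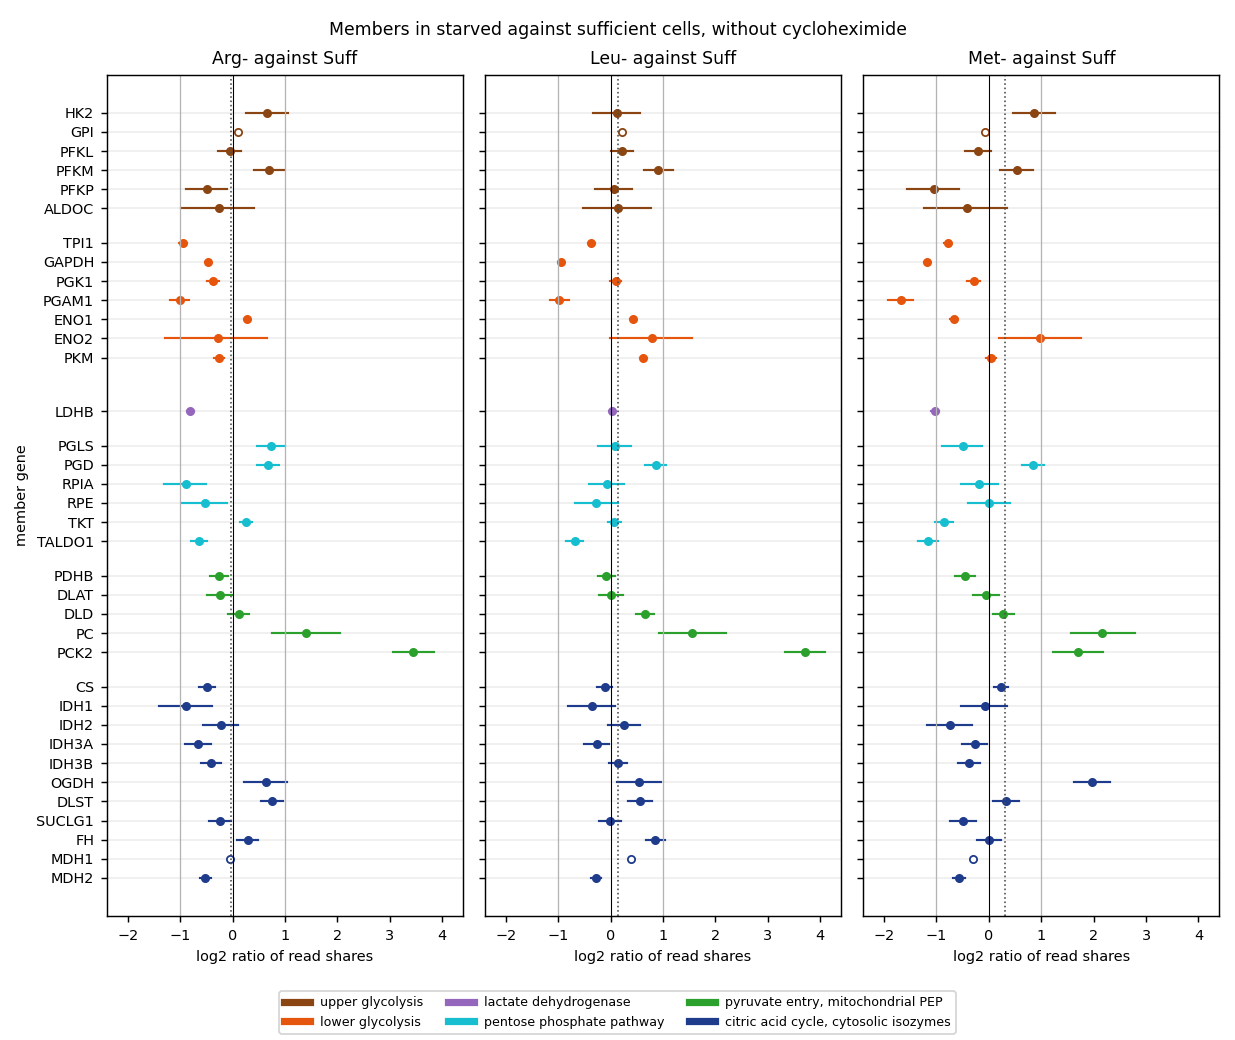
Log2 ratio of read shares for each member in Arg-, Leu- and Met- against Suff without cycloheximide; bars are exact 95% counting intervals, open circles are ratios of RPKM + 1 for GPI and MDH1, which gave no whole read count, grey lines mark 2-fold and the dotted line is the median of all mRNAs. PCK2 and PC lie to the right in all 3 panels, and lower glycolysis lies left of the dotted line for 6 of 7 genes in Met-.

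In upper glycolysis no member passed 2-fold without cycloheximide on the RPKM + 1 scale. HK2, which phosphorylates glucose and binds mitochondria, stood at 14.1 RPKM in Suff, 22.3 in Arg-, 15.3 in Leu- and 25.6 in Met-, log2 ratios of 0.63, 0.11 and 0.82. GPI was nearly level, with 352, 377, 407 and 334 RPKM. ALDOC, the brain-type aldolase, had 17.7, 14.7, 19.5 and 13.3 RPKM, and its interval held 0 in each starvation. The phosphofructokinases, which commit the sugar to glycolysis, moved apart from each other. The liver form PFKL was at 71.9, 69.2, 83.3 and 62.6 RPKM. The muscle form PFKM was at 28.9 in Suff and higher in each starved library, at 46.9, 54.1 and 41.8, log2 ratios of 0.68, 0.88 and 0.52 with intervals above 0. In Met- 59.5% of all mRNAs compared lay below PFKM. The platelet form PFKP was at 28.9, 20.6, 30.1 and 14.0, and its log2 ratio of -0.995 in Met- lay just inside 2-fold. By read share it was just past it, at -1.05 with an interval of -1.55 to -0.57. As shares of the summed RPKM of this step, PFKM went from 22.3% in Suff to 34.3%, 32.3% and 35.3% in Arg-, Leu- and Met-, and PFKP from 22.3% to 15.1%, 18.0% and 11.8%.

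Lower glycolysis held the members with the lowest ratios. PGAM1, the phosphoglycerate mutase, was at 560 RPKM in Suff, 278 in Arg-, 284 in Leu- and 175 in Met-, so that each starved library lay below Suff. Its log2 ratios were -1.01 (interval -1.19 to -0.84), -0.98 (-1.16 to -0.80) and -1.67 (-1.92 to -1.45), and in Met- only 0.939% of all mRNAs lay lower. GAPDH was at 5279, 3799, 2736 and 2328 RPKM, log2 ratios of -0.47, -0.95 and -1.18. TPI1 followed at 2788, 1444, 2157 and 1615 RPKM, log2 ratios of -0.95, -0.37 and -0.79. These 3 enzymes were thus lower in all starved libraries, PGAM1 and GAPDH furthest in Met-. The remaining lower glycolytic members did not share that pattern. The ATP-forming kinase PGK1 was at 564, 437, 603 and 462 RPKM and stayed within 0.37 of 0 on the log2 scale. ENO1 was above Suff in Arg- and Leu- and below it in Met-, with 1769, 2148, 2370 and 1112 RPKM and log2 ratios of 0.28, 0.42 and -0.67. Pyruvate kinase (PKM) was highest in Leu-, at 674, 562, 1039 and 693 RPKM. ENO2 had 8.05, 6.66, 13.8 and 15.9 RPKM from 14 to 33 reads, and took 0.453% of the summed enolase RPKM in Suff and 1.41% in Met-. LDHB, the lactate dehydrogenase subunit of heart, was at 2397 RPKM in Suff and 2447 in Leu-, which were nearly level, and at 1369 in Arg- and 1177 in Met-. Its log2 ratio in Met- was -1.03 (interval -1.11 to -0.95).

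The pentose phosphate members did not share 1 pattern. PGD, the 6-phosphogluconate dehydrogenase that makes NADPH, was lowest in Suff, with 94.3 RPKM against 151 in Arg-, 171 in Leu- and 169 in Met-. Its log2 ratios were 0.67, 0.85 and 0.83, none past 2-fold, each with an interval above 0. PGLS, the lactonase before it, had 106, 176, 112 and 75.1 RPKM and was above Suff in Arg- and below it in Met-. TALDO1, which passes carbon units between sugar phosphates, was highest in Suff at 440 RPKM, with 283, 274 and 197 in Arg-, Leu- and Met- and log2 ratios of -0.64, -0.68 and -1.16. Transketolase (TKT) was near Suff in Arg- and Leu- and lower in Met-, with 251, 301, 263 and 138 RPKM, a log2 ratio of -0.86 in Met-. The ribose 5-phosphate isomerase RPIA was lowest in Arg-, at 86.4, 46.4, 82.1 and 76.3 RPKM. The epimerase RPE had 83.4, 57.8, 69.0 and 83.8 RPKM.

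PCK2 (chromosome 14, 24094053 to 24110598, GRCh38, plus strand) was the member furthest from Suff in Arg- and Leu- without cycloheximide. It was at 11.1 RPKM from 67 reads in Suff, 121 RPKM from 374 reads in Arg-, 144 RPKM from 415 reads in Leu- and 35.9 RPKM from 90 reads in Met-. Every starved library lay above Suff, with Arg- and Leu- close to each other and Met- between them and Suff. Log2 ratios were 3.33, 3.59 and 1.61, with intervals from reads of 3.07 to 3.84, 3.32 to 4.09 and 1.22 to 2.17, and in Arg- and Leu- 99.9% of all mRNAs lay below it. In Met- 94.5% lay below it. A reference list held 25 genes of the integrated stress response, ATF4 among them and PCK2 not. Of these, 19 of 22 compared were at least 2-fold higher in Arg-, 19 of 22 in Leu- and 17 of 21 in Met-. The shares over all mRNAs were 8.23%, 6.85% and 20.2%, and the list's medians were 2.13, 2.12 and 1.67. The list was chosen with earlier results of these data known, so its counts are no independent support. A part of ATF4 in the PCK2 values was not tested. PC, which makes the oxaloacetate that PCK2 uses, was lowest in Suff, with 3.33, 8.78, 9.82 and 15.0 RPKM from 37, 50, 52 and 69 reads. Its coding sequence, 3537 nt, is the longest of the listed members, and no ratio relative to mRNAs of like coding length is given for it. PC did not reach the mean of 10 RPKM and is in none of the counts above. Its log2 ratios were 1.17, 1.32 and 1.88, and its order across the starved libraries, highest in Met-, was not that of PCK2. The subunits of pyruvate dehydrogenase stayed close to Suff. PDHB was at 274, 230, 259 and 200 RPKM and DLAT, the acetyltransferase, at 78.5, 66.4, 79.0 and 75.4. DLD, the dihydrolipoamide dehydrogenase that pyruvate and oxoglutarate dehydrogenase share, was highest in Leu-, with 125, 136, 196 and 151 RPKM.

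In the citric acid cycle, OGDH (chromosome 7, 44606572 to 44709066, GRCh38, plus strand) was the 1 member past 2-fold without cycloheximide. It was at 12.1 RPKM in Suff, 18.7 in Arg-, 17.6 in Leu- and 47.3 in Met-, with log2 ratios of 0.60, 0.51 and 1.89. The interval in Met- was 1.63 to 2.31, from 192 reads against 118 in the deeper Suff library. It has the longest coding sequence of the cycle members, and relative to mRNAs of like coding length its log2 ratio in Met- was 0.98, just under 2-fold. DLST, its succinyltransferase partner, was above Suff in each starved library at 92.6, 156, 137 and 117 RPKM, log2 ratios of 0.75, 0.56 and 0.33. In Met- 50.8% of all mRNAs compared lay below DLST, so it was in the middle of all mRNAs there. Fumarase (FH) was highest in Leu-, with 117, 143, 210 and 117 RPKM. Citrate synthase (CS), the entry step, was lowest in Arg- and highest in Met-, with 295, 211, 273 and 346 RPKM. Among the isocitrate dehydrogenases, the NAD-dependent subunits IDH3A and IDH3B were at 160, 102, 133 and 133 RPKM and at 222, 168, 245 and 171 RPKM. The cytosolic NADP-dependent IDH1 was at 40.4, 21.9, 31.7 and 38.2 RPKM and its mitochondrial counterpart IDH2 at 55.5, 47.5, 66.4 and 33.3. IDH1 therefore took 42.1% of their sum in Suff, 31.6% in Arg-, 32.3% in Leu- and 53.4% in Met-. The succinyl-CoA ligase subunit SUCLG1 had 191, 162, 189 and 136 RPKM. MDH2 was highest in Suff at 917 RPKM against 639, 755 and 614, while the cytosolic MDH1 had 320, 311, 421 and 260.

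With cycloheximide many members stood higher in the starved libraries than in the single Suff library. In Arg-, 14 of 26 members were at least 2-fold higher, beside 16.6% of all mRNAs, and 2 were lower, beside 19.7%. In Leu-, 14 of 26 were higher, beside 12.1%, and 1 was lower, beside 7.28%. In Met-, 10 of 19 were higher, beside 46.7%, and 0 were lower, beside 9.79%. The Met- library held 538222 reads, so its floor of 64 reads lay at a higher RPKM than that of Suff. RPE, DLD, CS, IDH2, IDH3A, SUCLG1 and FH were listed in Suff but not in Met-. Members low in Met- could drop out there, so its counts and median lean upwards and its lack of lower members is no result. The members' medians were 1.31, 1.10 and 1.0, against -0.23, 0.02 and 0.89 over all mRNAs. The shares in Arg- and Leu- were thus above the background, and that in Met- was near it. Relative to the median of all mRNAs, 14 and 1 members were higher and lower in Arg-, beside 21.5% and 12.4% of all mRNAs, and 13 and 1 in Leu-, beside 11.4% and 7.7%. In Met- they were 4 and 3 of 19, beside 20.8% and 23.0%, with a median of 0.12.

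ENO1 had the highest ratio of all members in Arg- and Leu- in this series, and the succinyltransferase DLST in Met-. DLST had 71 reads in Met- and 72 in Suff, just over the floor of 64. In the shallow Met- library it could be listed only if high, so its rank there is no result. ENO1 was at 250 RPKM in Suff, 2285 in Arg-, 1416 in Leu- and 1095 in Met-, log2 ratios of 3.18, 2.49 and 2.12, and in Arg- 99.9% of all mRNAs lay below it. PGK1 was at 75.6, 318, 266 and 328 RPKM and PKM at 88.0, 349, 323 and 383. Both had log2 ratios of 1.80 to 2.11 in the 3 starvations. GAPDH was at 721, 2328, 1289 and 1777 RPKM, log2 ratios of 1.69, 0.84 and 1.30. LDHB was at 360, 1703, 1819 and 423 RPKM and LDHA, the muscle subunit, at 189, 731, 622 and 302, so that both were high in Arg- and Leu- and closer to Suff in Met-. Of their sum LDHA made up 34.4% in Suff, 30.03% in Arg-, 25.5% in Leu- and 41.7% in Met-. PGAM1 went the other way, at 440 RPKM in Suff, 132 in Arg-, 156 in Leu- and 327 in Met-, log2 ratios of -1.73, -1.49 and -0.43. TPI1 was below Suff as well, at 1661, 1097, 1528 and 1026 RPKM. GPI was the 1 upper glycolytic member listed in Suff, with 114, 437, 377 and 376 RPKM. PFKL, PFKM and ALDOC were listed in none of the 4 drug libraries.

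Of the pentose phosphate members compared with cycloheximide, TKT was at 74.8, 283, 277 and 151 RPKM, log2 ratios of 1.91, 1.87 and 1.0. Relative to mRNAs of like coding length its ratio in Met- was -0.62, on the other side of 0. TALDO1 was slightly above Suff in each, at 255, 346, 384 and 334 RPKM. PGLS was below Suff at 242, 142, 143 and 170 RPKM, and RPIA at 133, 63.96, 94.95 and 129 RPKM was lowest in Arg-, with a log2 ratio of -1.05. PGD was not listed in Suff and stood at 86.4, 66.4 and 98.7 RPKM in Arg-, Leu- and Met-. RPE was at 85.7, 67.9 and 90.3 RPKM in Suff, Arg- and Leu-.

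Around pyruvate, DLD was at 31.7 RPKM in Suff, 230 in Arg- and 162 in Leu-, log2 ratios of 2.82 and 2.31. PDHB was at 259, 330, 389 and 649 RPKM, highest in Met-, where 63.5% of all mRNAs compared had a lower ratio. DLAT was at 33.2, 81.2, 55.3 and 70.8 RPKM. The ratio of DLAT in Met- turned from 1.07 to -0.56 relative to mRNAs of like coding length. PCK2 was listed at 95.6 RPKM in Arg- and 81.7 in Leu- and in neither Suff nor Met-, and PC in no library. For PCK2 64 reads would be 16.5 RPKM in Suff and 78.3 in the shallow Met- library. An mRNA missing from a drug library has no known level, since PFKL at 62.6 to 83.3 RPKM without the drug was also missing from Leu-, where 64 reads would be 4.25 RPKM, so no fold is given.

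In the citric acid cycle with cycloheximide, MDH1 and DLST stood furthest from Suff in Arg- and Leu-, and DLST and IDH3B in Met-. The place of DLST in Met- rests on 71 reads, near the floor of 64, and is no result. MDH1 was at 79.1, 402, 308 and 130 RPKM, log2 ratios of 2.33, 1.95 and 0.71, and DLST at 20.7, 95.2, 85.9 and 97.1, log2 ratios of 2.15, 2.0 and 2.18. CS was at 45.9, 160 and 128 RPKM and FH at 57.9, 149 and 187 in Suff, Arg- and Leu-. IDH3B was at 120, 201, 274 and 378 RPKM and MDH2 at 538, 737, 986 and 1063, each lowest in Suff and highest in Met-. In Met- 72.1% of all mRNAs compared lay below IDH3B and 52.9% below MDH2, so MDH2 was near the middle of all mRNAs there. SUCLG1 was at 178, 267 and 363 RPKM. IDH3A at 177, 156 and 202 and IDH2 at 89.0, 64.03 and 86.3 RPKM were close to Suff. IDH1 and OGDH were not listed in Suff.

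The series with and without cycloheximide gave different values for the same members. Of the 25 members compared in both for Arg-, 21 had the higher log2 ratio with the drug and 13 had ratios of opposite sign. For Leu- these counts were 21 and 10 of 25, and for Met- 17 and 12 of 18. GAPDH in Met- was the 1 member past 2-fold in opposite directions, at -1.18 without and 1.30 with cycloheximide. Relative to the median of all mRNAs the value with cycloheximide was 0.41, inside 2-fold. The drug series and the series without the drug were processed separately, and their part in the difference was not tested.

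Since each medium was profiled in both series, starved cells were also compared with Suff over all 8 libraries, in a limma fit with medium and drug series as terms. It covered the 1790 mRNAs listed in every library with a mean of at least 10 RPKM and left 3 residual degrees of freedom. Its error comes from how far the differences between media disagree between the series. An mRNA low in the shallow Met- library with cycloheximide can drop out there. Fitted values for Met- therefore lean upwards, in the members and in all mRNAs alike. PCK2 and OGDH are not in the fit. Of the 18 members covered, 0 passed an adjusted p of 0.05 (Benjamini-Hochberg) in Arg-, beside 0.112% of all mRNAs, 0 in Leu-, beside 0.223%, and 0 in Met-, beside 10.8%. An unadjusted p under 0.05 was reached by 7, 5 and 2 members, beside 21.2%, 11.7% and 33.8% of all mRNAs. The lowest adjusted p of a member in the limma fit was 0.152 in Arg-, 0.366 in Leu- and 0.107 in Met-. In Arg-, for the 3 members with the lowest p, picked after seeing the values, the fitted log2 ratio was 1.73 for ENO1 (95% interval of the fit 0.42 to 3.04), 1.45 for DLST (0.36 to 2.54) and -1.37 for PGAM1 (-2.41 to -0.33).

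**Figure D4:**
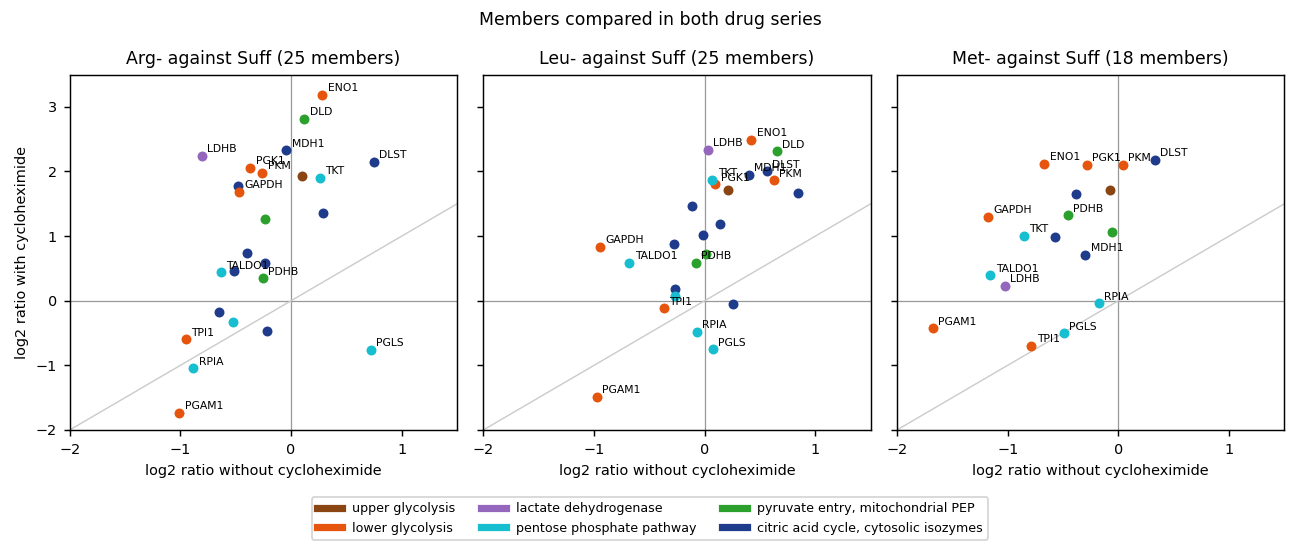
Log2 ratio of RPKM + 1 against Suff without cycloheximide (horizontal) and with it (vertical) for members compared in both series; the diagonal marks equal values. Of the points, 21 of 25 in Arg-, 21 of 25 in Leu- and 17 of 18 in Met- lie above the diagonal, and PGAM1 lies in the lower left in each panel.

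Coding length moved with the ratios in all comparisons. Without cycloheximide Spearman's rho between coding length and log2 ratio was 0.61, 0.63 and 0.56 over the members in Arg-, Leu- and Met-, and 0.36, 0.31 and 0.44 over all mRNAs. With it rho was 0.52, 0.55 and 0.67 over the members and 0.47, 0.42 and 0.54 over all mRNAs. The points of a comparison share its 2 libraries. Members under 1000 nt, such as PGAM1, TPI1, PGLS and RPIA, had a median log2 ratio of -0.60 in Arg- with cycloheximide, beside 1.78 for the longer ones, and of -0.88 beside -0.24 without it. The part of coding length in the ratios was not tested. With each ratio taken relative to the median of all mRNAs in the same decile of coding length, 13, 14 and 0 members were at least 2-fold higher with cycloheximide in Arg-, Leu- and Met-, beside 15.8%, 8.74% and 16.6% of all mRNAs. Without it 1, 1 and 1 were higher, beside 6.68%, 4.15% and 8.74%, and 0, 0 and 8 were lower, beside 4.35%, 2.62% and 7.75%.

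**Figure D5:**
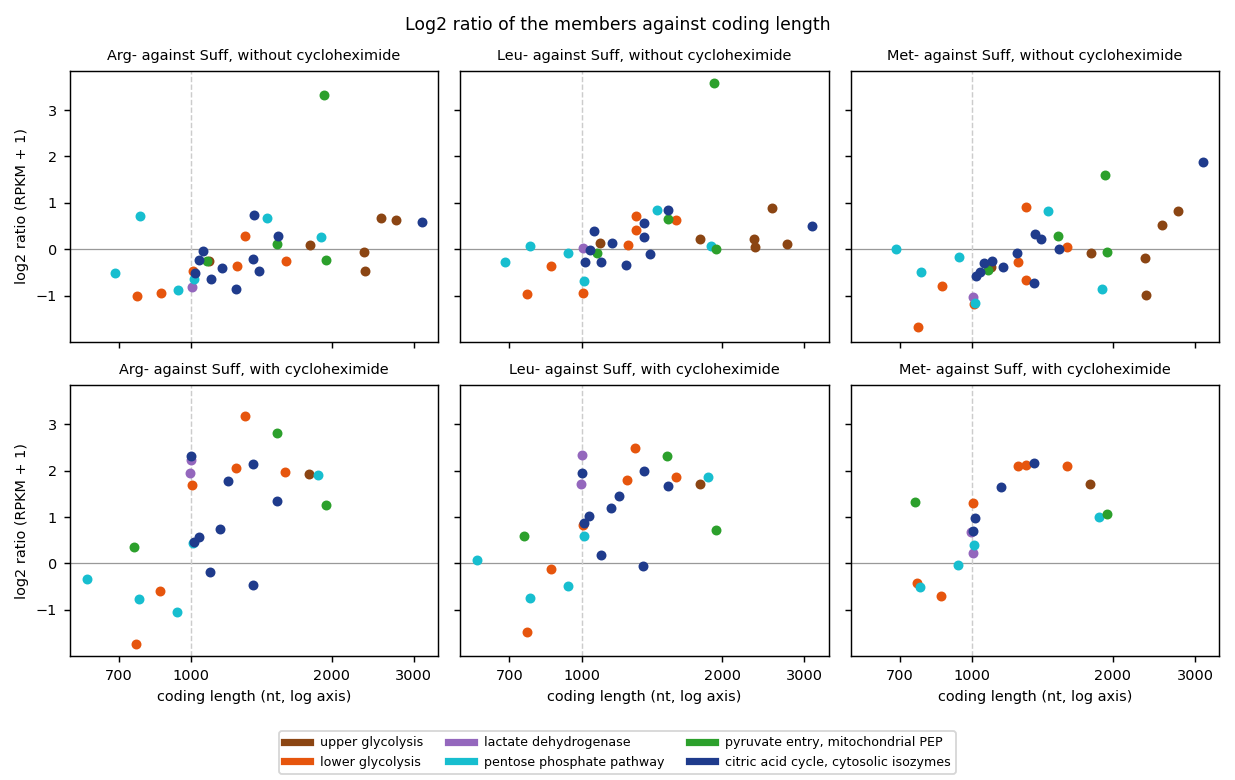
Log2 ratio of RPKM + 1 against Suff by coding length in nucleotides (log axis) for each member compared, without cycloheximide in the upper and with it in the lower panels; the dashed line marks 1000 nt. PCK2 stands alone near the top in Arg- and Leu- without cycloheximide, and the members under 1000 nt sit mostly below 0.

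Without cycloheximide, rho with the share of the missing amino acid in each protein was smaller than rho with coding length. The members hold 0.775% (PGLS) to 6.58% (RPE) methionine, and rho between this share and the log2 ratio in Met- was 0.26 over 35 members and -0.08 over all mRNAs. For leucine in Leu- it was 0.08 and -0.00, and for arginine in Arg- 0.31 and 0.03. With cycloheximide the values for arginine turned and those for methionine moved. For arginine in Arg- rho was -0.42 over 26 members and -0.12 over all mRNAs, and for methionine in Met- 0.51 over 19 members and -0.15. For leucine in Leu- it was 0.07 and -0.08.

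Among 60 further genes of these pathways, which include regulators, transporters and the steps not named above, 2 of 32 compared were at least 2-fold higher in Arg- without cycloheximide, 4 of 32 in Leu- and 9 of 33 in Met-, beside 8.23%, 6.85% and 20.2% of all mRNAs. None was lower in Arg- or Leu- and 3 were in Met-, beside 5.95%, 2.06% and 5.34%. With cycloheximide 4 of 16, 3 of 16 and 2 of 4 were higher, beside 16.6%, 12.1% and 46.7%, and 3, 0 and 0 were lower, beside 19.7%, 7.28% and 9.79%. The lactate transporter SLC16A1 was past 2-fold higher in Met- in both series, at 183 against 588 RPKM without and 46.9 against 230 with cycloheximide.

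The C/EBP-ATF response element, spelled TGATGNAA and searched on both strands, is a DNA motif through which ATF4 acts. It was found in the 250 bases before the RefSeq start of 1 of the 40 members with a promoter entry (HK1) and in 3.19% of 27305 such promoters (GRCh38.p14). The window of PCK2 ran from 24094061 to 24094310, past the GENCODE gene start of 24094053. Sequence before that gene start was thus not searched. The PCK2 window did not hold these letters, which says nothing of ATF4. These bulk footprint values do not tell fewer cells making an enzyme from fewer footprints per cell, nor mRNA level from ribosomes per mRNA.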

How the data were processed

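Ribosome footprints of HEK293T cells were measured in 8 libraries, 1 per condition. According to the study's methods and the submitters' processing notes, the authors trimmed adaptors, kept footprints of limited length, mapped them onto human transcripts (GRCh38) in Bowtie allowing no mismatch, and retained reads with a single mapping place; names in the deposited files point to removal of duplicate reads in the series without cycloheximide only. Each deposited file gives RPKM by Ensembl transcript. The methods give a read minimum for the density profiles along mRNAs. None is stated for these tables, whose lowest read counts were 5 without and 64 with cycloheximide.

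Transcripts were matched to GENCODE release 44 (96.7% to 97.1% per library), and the highest transcript of each gene was kept, which can differ between the series. Reads were recovered from the whole steps of RPKM times coding length within 0.01 of a step, which held for 97.2% to 97.4% of transcripts. Ratios used a pseudocount of 1 and a mean of at least 10 RPKM in the pair, and calls were set at 2-fold. Intervals are exact (conditional binomial for ratios, binomial for shares) at 95% and cover counting error only. PCR copies are not independent molecules. The pairs of libraries were described without a test. A fit with medium and drug series as terms was added after seeing the data (limma 3.58.1 in R 4.3.3, Benjamini-Hochberg adjustment). All 41 members may be named. Values in every library are given for those past 2-fold, isozymes and the highest and lowest of each group, and other pathway genes are named where past 2-fold the same way in both series. A result on 1 such gene is not reported here. Members and lists were chosen with earlier results of these data known. Scripts were tested on simulated data. The software was scipy 1.17.1, pandas 2.3.3, numpy 2.4.6 and, for the plots, matplotlib 3.10.9, under Python 3.11.15.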

Additional observations from a re-analysis of the deposited data

Results flagged for a closer look

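GAPDH in Met- stood out because its 2 series pointed in opposite directions past 2-fold. Its log2 ratio against Suff was -1.18 without cycloheximide and 1.30 with it. Relative to the median of all mRNAs the value with cycloheximide was 0.41, inside 2-fold, and 62.4% of all mRNAs lay below it. The difference was not tested, since each value rests on 1 library per condition, and the Suff level was 5279 RPKM without and 721 RPKM with the drug.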

How the results depend on the processing

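The paired analysis, the limma fit with the drug series as a block given in the report, was chosen after seeing the data and called 0 members. The calls of single members past 2-fold, 50 in all over the 6 comparisons, kept their direction and side of 2-fold under a pseudocount of 0.1, no minimum RPKM, a minimum of 50 RPKM (48 left to compare), absent mRNAs counted as 0, summed transcripts, the same transcript in both libraries and at least 64 reads in both (47 left). With no minimum RPKM, 2 members were higher in Arg- and 2 in Leu- without cycloheximide, since PC then entered, beside 9.22% and 7.98% of all mRNAs. With at least 50 RPKM, 0 were higher in Met- without it, beside 11.1%. A pseudocount of 0.1 made 5 lower in Met- without it, beside 5.5%. Absent mRNAs counted as 0 made 7 members lower in Met- with cycloheximide, where 61.9% of all mRNAs were then lower. Centring on the median of all mRNAs took 9 of the 50 calls inside 2-fold. Without cycloheximide it gave 0 lower members in Arg-, 2 in Leu- and 8 in Met-, beside 5.53%, 3.44% and 10.7% of all mRNAs. Medians were then -0.046 in Leu- and -0.58 in Met-. With cycloheximide it gave 1 lower in Arg-, beside 12.4%. In Met- it gave 4 higher and 3 lower, beside 20.8% and 23.0%, with a median of 0.12. Centring within deciles of coding length, chosen after seeing the data, took 12 calls inside 2-fold and turned 2 (TKT -0.62 and DLAT -0.56, both Met- with cycloheximide). Without cycloheximide the deciles gave 0 lower in Arg-, beside 4.35% of all mRNAs, and a median of -0.11 in Leu-. In Met- they gave 1 higher and 8 lower, beside 8.74% and 7.75%, and a median of -0.60. With cycloheximide, 1 was lower in Arg-, beside 11.9%. In Met- with it, 0 were higher and 1 was lower, beside 16.6% and 15.7%, and the median was -0.061. The shift between centrings follows from the medians subtracted. Taken over the reads of listed transcripts, the members' share was 2.07%, 1.64%, 1.92% and 1.32% in Suff, Arg-, Leu- and Met- without cycloheximide and 0.696%, 1.56%, 1.38% and 1.47% with it. Depth limits the low members most, such as ENO2, PC and ALDOC, and all members in Met- with cycloheximide, where 19 could be compared.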
